A study of Mus musculus with 20 samples.

Results

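The genes described here encode the alpha chains of collagens, measured by microarray in mouse abdominal skin. They were chosen by name: every probe set whose single gene symbol on the array platform reads Col, digits, a, digits was taken, which gave 47 probe sets of 41345. For Col1a2, Col5a1 and Col6a1, which had 2 probe sets each, the brighter over all 20 arrays stood for the gene, so 44 collagen genes of 22180 named genes were described. The rule itself used no measured value beyond brightness, although the collagen genes were chosen as members with earlier results of these data known.

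Collagens are triple-helical proteins of the extracellular matrix, built from alpha chains that are hydroxylated and assembled in the endoplasmic reticulum, secreted as procollagens and trimmed outside the cell. Fibrillar collagens, chiefly types I, III and V in skin, form the dermal fibrils and come mostly from fibroblasts. Type IV collagens form the sheet of basement membranes, and type VII and type XVII collagens fasten the epidermis to the dermis. The remaining chains form beaded filaments, coat fibrils, span membranes or build short-chain networks.

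The imiquimod-treated KO group and the mock-treated KO group were mice of genotype zfp36 fl/fl K14 cre. The imiquimod-treated control group and the mock-treated control group were zfp36 fl/fl littermates without Cre. All 4 groups therefore carried floxed alleles of Zfp36, which encodes tristetraprolin, an RNA-binding protein that promotes the decay of messenger RNAs with AU-rich elements. The keratin 14 promoter drives Cre in basal keratinocytes, so the deletion was not directed at the fibroblasts that make most dermal collagen. Imiquimod, an agonist of Toll-like receptor 7 that produces psoriasis-like skin inflammation in mice, or a mock treatment was applied for 5 consecutive days, and skin was taken 4 hours after the last application. Each group held 5 animals, with 1 array per animal. The labels used here state neither age nor sex. Values are on a scale taken as log2, so a difference of 1 is a doubling, and arrays are listed in the order of replicates 1 to 5.

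The design asks what imiquimod does in each genotype, what loss of Zfp36 in keratinocytes does under each treatment, and whether the responses to imiquimod differ between genotypes. Zfp36 itself was lower in KO skin under both treatments. It averaged 6.40 ± 0.85 in imiquimod-treated KO skin and 8.0 ± 0.26 in imiquimod-treated control skin (SD, n = 5 each, exact two-sided permutation test p = 0.00794). Under mock it averaged 5.43 ± 1.54 in KO skin and 7.46 ± 0.22 in control skin (SD, n = 5 each, exact two-sided permutation test p = 0.00794). In the fit over all genes these differences did not pass, with limma adjusted p-values of 0.221 under imiquimod and 0.999 under mock. With the mean of skeletal muscle markers as a covariate the difference under imiquimod was -0.92, against -1.6 without it. The place of the probe set relative to the floxed part of the gene is not known here. Array medians lay between 4.94 and 5.04.

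Imiquimod was followed by lower signals of part of the collagen genes in both genotypes. In KO skin 9 of the 44 collagen genes were lower after imiquimod than after mock and 1, Col23a1, was higher, while 34 did not pass. Among all 22180 genes in that comparison 9.71% were lower and 11.1% higher. In control skin 12 of the 44 were lower and 0 higher, against 4.37% lower and 6.47% higher among all genes. Calls rest on limma with Benjamini-Hochberg adjustment over all genes and a threshold of 0.05. At an unadjusted limma p under 0.05 there were 12 of 44 genes in KO skin, beside 31.2% of all genes, and 19 of 44 in control skin, beside 23.9% of all genes. Of these 19, 2 (Col6a4 and Col23a1) were higher after imiquimod. The KO count is thus a smaller share than that among all genes. The median difference over the 44 genes was -0.07 in KO skin and -0.16 in control skin, beside medians of 0.00 over all genes in both comparisons. Skin samples are mixtures, so fewer cells of a type and less RNA per cell cannot be told apart in these results.

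The genes lower in both genotypes were Col1a1, Col1a2, Col5a3, Col4a5, Col4a6, Col15a1, Col6a6, Col14a1 and Col16a1, which is 9 of the 9 called in KO skin and 9 of the 12 called in control skin. The overlap of lower calls among all genes is not given here, so this overlap is not read as particular to collagens. Col3a1, Col5a1 and Col18a1 passed in control skin and not in KO skin, and this split moved with the fit. Fitted on the KO groups alone, Col3a1 passed in KO skin too (-0.55, limma adjusted p = 0.0335). Fitted on the control groups alone, Col5a1 and Col18a1 lost the control call (limma adjusted p = 0.0579 and 0.0749). With the mean of the hair markers described below as a covariate, Col3a1 and Col5a1 passed in KO skin (-0.85 and -0.79, limma adjusted p = 0.00139 and 0.00253). For none of these 12 genes did the test of the difference between the responses pass. The KO and control comparisons with mock do not share arrays, but the fit gives both the same spread per gene. In KO skin the arrays of imiquimod and mock did not overlap for 4 collagen genes, all lower, where 6.53% of all genes were lower without overlap. In control skin they did not overlap for 12, all lower, where 2.74% of all genes were.

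All 12 genes called lower in either genotype belong to the 28 collagen genes whose mean over all arrays lay above the median gene, at 5.44. The other 16 collagen genes, dimmer than the median gene, had 0 calls by limma in either genotype, and at an unadjusted p under 0.05 they had 0 in KO skin and 1 in control skin, against the same 31.2% and 23.9% of all genes. These shares cover genes of every brightness. The share among equally dim genes is not given here. Detection calls were not used here, so a change in a chain with little RNA in skin could be missed.

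**Figure D1:**
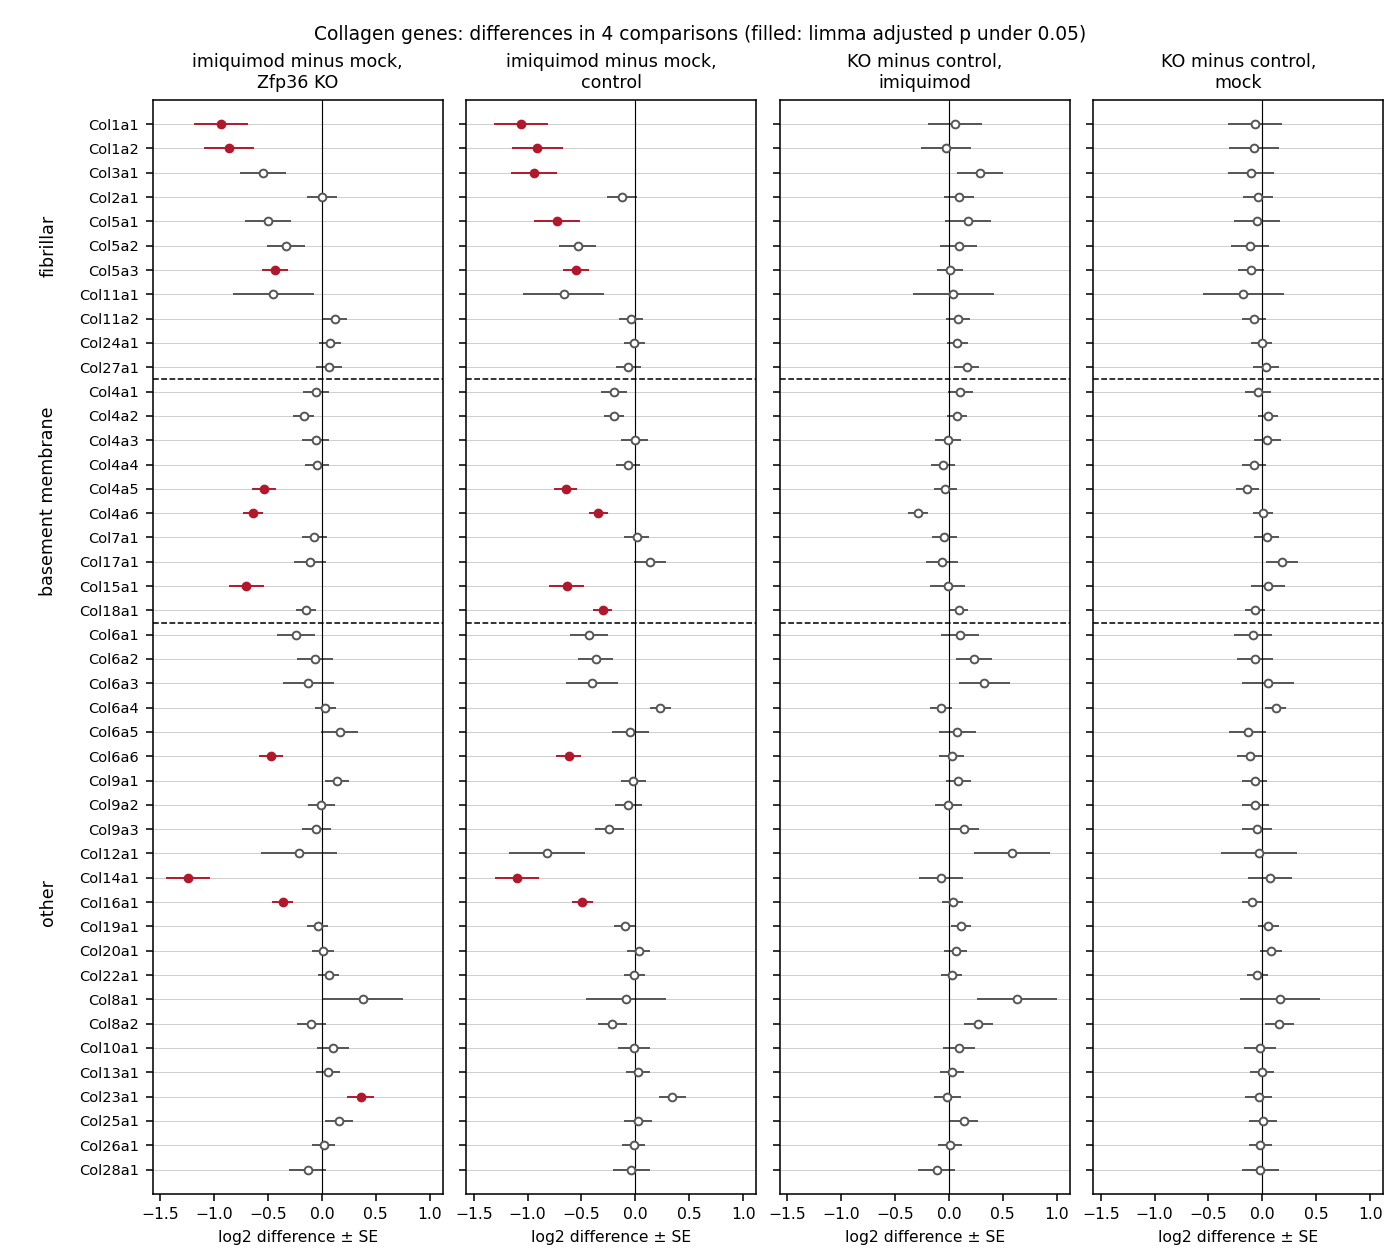
Log2 difference ± SE of the 44 collagen genes in 4 comparisons, from left to right imiquimod minus mock in KO skin, imiquimod minus mock in control skin, KO minus control under imiquimod and KO minus control under mock, with 5 arrays per group. Filled points have a limma adjusted p under 0.05: there are 10 in the first comparison, 12 in the second and 0 in either comparison of genotypes.

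Of the 11 fibrillar collagen genes, 3 fell after imiquimod in KO skin (Col1a1, Col1a2 and Col5a3) and 5 fell in control skin (those and Col3a1 and Col5a1). Their median difference was -0.44 in KO skin and -0.55 in control skin. All 11 estimates lay below 0 in control skin and 7 did in KO skin.

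Col1a1 encodes the alpha-1 chain of type I collagen, the main protein of dermal fibrils. It read 9.57, 10.09, 10.39, 9.74 and 9.92 in imiquimod-treated KO arrays, against 10.84, 11.26, 11.25, 10.56 and 10.47 in mock-treated KO arrays. The highest imiquimod array lay below the lowest mock array, and the difference was -0.93 ± 0.25 (SE), or 1.91-fold lower, with a limma adjusted p of 0.0104. Controls read 9.65, 9.81, 9.50, 10.27 and 10.19 after imiquimod, against 10.63, 10.32, 10.87, 10.90 and 11.99 after mock. These arrays did not overlap either, and mock replicate 5 was the brightest of all 20. The control difference was -1.06 ± 0.25 (SE), or 2.08-fold lower (limma adjusted p = 0.00785). Between genotypes Col1a1 differed by 0.06 under imiquimod (95% interval -0.46 to 0.58) and by -0.07 under mock (-0.59 to 0.45).

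Col1a2 encodes the alpha-2 chain that joins Col1a1 chains in type I collagen. Its values were 9.20, 9.71, 9.96, 9.71 and 9.45 in imiquimod-treated KO arrays, against 10.49, 10.91, 10.82, 10.08 and 10.05 in mock-treated KO arrays. In controls they were 9.53, 9.56, 9.39, 9.77 and 9.93 after imiquimod, against 10.11, 10.03, 10.55, 10.5 and 11.53 after mock. Imiquimod and mock arrays did not overlap in either genotype, and control mock replicate 5 was again the highest. The difference was -0.86 ± 0.23 (SE) in KO skin and -0.91 ± 0.23 in control skin, with limma adjusted p-values of 0.0110 and 0.0143. The dimmer second probe set of Col1a2 differed by -0.45 in KO skin and -0.83 in control skin. With the mean of both probe sets in place of the brighter one, the KO difference was -0.66 and no longer passed (limma adjusted p = 0.0595).

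Col3a1 encodes type III collagen, which forms thin fibrils together with type I. It read 9.85, 10.21, 10.23, 10.30 and 9.89 in imiquimod-treated KO arrays, against 10.47, 11.01, 11.02, 10.46 and 10.26 in mock-treated KO arrays. The 2 groups overlapped, since the highest imiquimod array, replicate 4, exceeded mock replicate 5, and the difference of -0.55 ± 0.21 (SE) did not pass (limma adjusted p = 0.0791). Controls read 9.79, 9.63, 9.69, 10.13 and 9.78 after imiquimod, against 10.44, 10.20, 10.80, 10.57 and 11.72 after mock. There the arrays did not overlap and Col3a1 was 1.92-fold lower, with a difference of -0.94 ± 0.21 (SE, limma adjusted p = 0.0061). The difference between the KO and control responses was 0.39 with a 95% interval of -0.24 to 1.03, and its limma adjusted p was 0.868. Without control mock replicate 5, which enters the shared spread of the fit, Col3a1 and Col5a1 passed in KO skin too.

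Type V collagen sits inside type I fibrils and limits their width. Its Col5a1 chain read 7.12, 7.12, 7.21, 7.12 and 7.02 in imiquimod-treated KO arrays, against 7.51, 7.89, 8.27, 7.24 and 7.19 in mock-treated KO arrays. Mock replicate 5 lay just below the highest imiquimod array, replicate 3, and the difference of -0.50 ± 0.21 (SE) did not pass (limma adjusted p = 0.104). Controls read 6.92, 6.89, 6.83, 6.99 and 7.08 after imiquimod, against 7.34, 7.32, 7.60, 7.44 and 8.64 after mock. All control mock arrays were above all imiquimod arrays, replicate 5 by the widest margin, and the difference was -0.73 ± 0.21 (SE, limma adjusted p = 0.0309). Without that replicate it was -0.48. The Col5a1 call in control skin was lost without any 1 of control imiquimod replicates 1 to 4 or control mock replicate 3, with adjusted p-values up to 0.0746, and with the mean of its 2 probe sets (-0.39, limma adjusted p = 0.108). Its second probe set, with group means below the median of every array, differed by 0.00 in KO skin and -0.05 in control skin.

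The Col5a3 chain of type V read 6.41, 6.15, 6.20, 6.14 and 6.31 in imiquimod-treated KO arrays, against 6.62, 6.75, 7.14, 6.47 and 6.41 in mock-treated KO arrays. Imiquimod replicate 1 and mock replicate 5 were equal, and the other imiquimod arrays lay below every mock array. In controls the values were 6.41, 6.11, 6.22, 6.17 and 6.23 after imiquimod, against 6.68, 6.67, 6.77, 6.64 and 7.15 after mock, without overlap. Col5a3 differed by -0.44 ± 0.12 (SE) in KO skin and -0.55 ± 0.12 in control skin, with limma adjusted p-values of 0.0136 and 0.00454. The remaining type V chain, Col5a2, differed by -0.33 in KO skin and -0.54 in control skin and passed in neither (limma adjusted p = 0.203 and 0.0537).

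Of the other fibrillar genes, Col11a1 differed by -0.45 ± 0.38 (SE) in KO skin and -0.67 ± 0.38 in control skin. Col2a1, the type II collagen gene of cartilage, differed by 0.00 in KO skin and -0.13 in control skin. Col11a2, Col24a1 and Col27a1 had estimates between -0.07 and 0.12 in both genotypes. None of these 5 genes passed by limma.

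The promoters of a pair of these genes are shown because type I and type III chains are made by the same dermal cells. RefSeq sequences of build GRCm38.p6 were available for 35 of the 44 collagen genes, and the 120 bases before the annotated start are printed 5′ to 3′, with capitals for a CCAAT box in Col1a2 and for TATAAA in Col3a1.
Col1a2, chr6:4505498-4505617, plus strand: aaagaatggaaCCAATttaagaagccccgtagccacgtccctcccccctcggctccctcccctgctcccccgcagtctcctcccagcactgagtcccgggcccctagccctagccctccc
Col3a1, chr1:45311418-45311537, plus strand: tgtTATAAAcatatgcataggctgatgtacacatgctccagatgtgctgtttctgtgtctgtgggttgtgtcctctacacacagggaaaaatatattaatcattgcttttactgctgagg
The CCAAT in Col1a2 begins 109 bases before the start and the TATAAA in Col3a1 begins 117 bases before it.

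**Figure D2:**
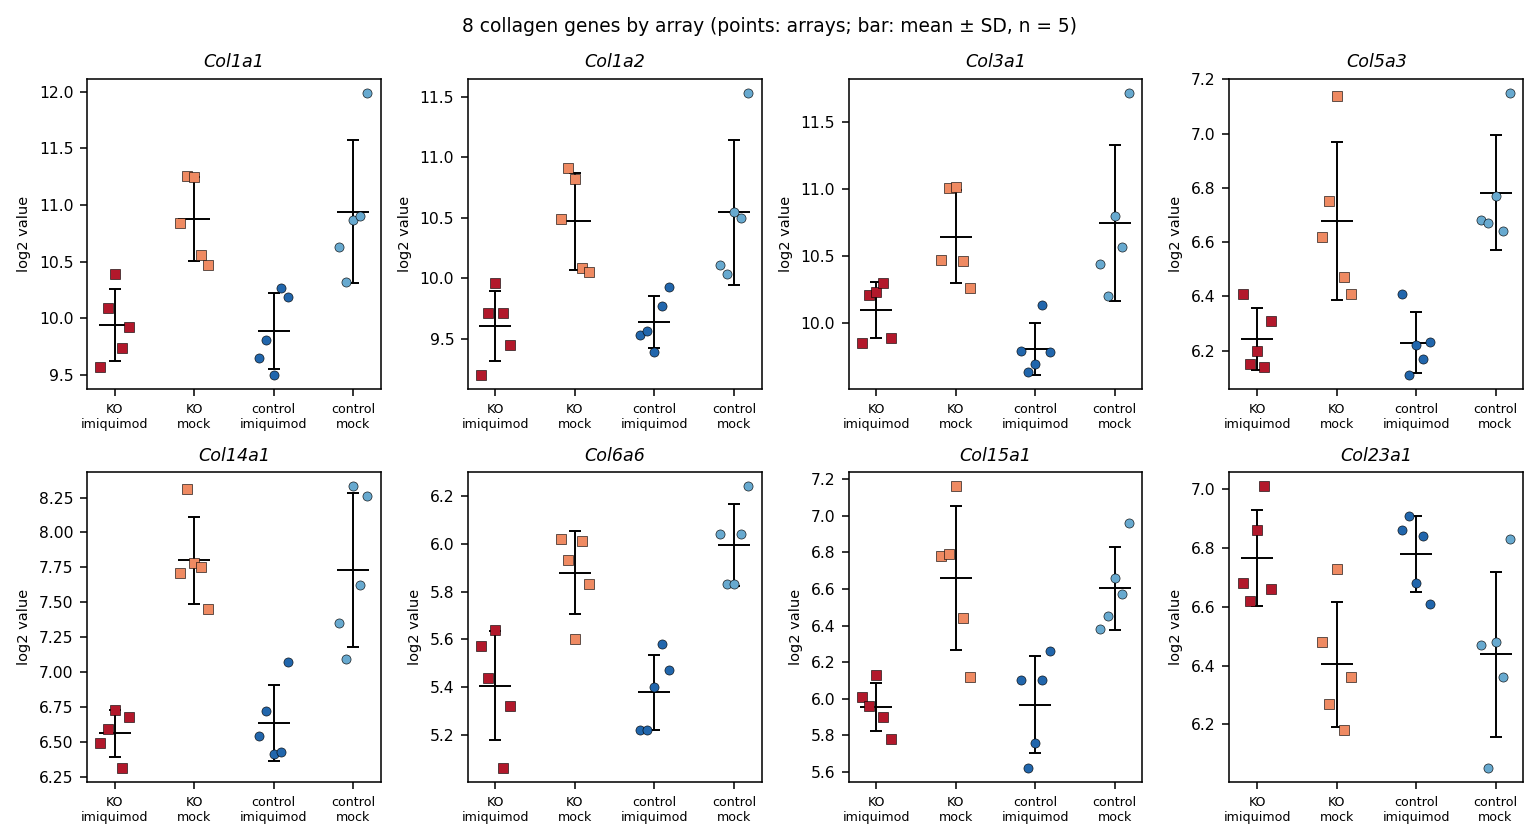
Log2 values of 8 collagen genes in the 20 arrays, in columns for imiquimod-treated KO, mock-treated KO, imiquimod-treated control and mock-treated control skin; points are arrays, and bars show mean ± SD with n = 5. Imiquimod and mock arrays do not overlap in either genotype for Col1a1, Col1a2 and Col14a1, and Col23a1 is the one gene of the 8 with higher imiquimod means, 6.77 against 6.40 in KO skin and 6.78 against 6.44 in control skin.

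Among the 10 basement membrane collagen genes, 3 fell after imiquimod in KO skin (Col4a5, Col4a6 and Col15a1) and 4 fell in control skin (those and Col18a1). The median difference of the 10 was -0.13 in KO skin and -0.20 in control skin. The type IV chains that passed were Col4a5 and Col4a6, which assemble together in the basement membrane of the epidermis, and the widespread chains Col4a1 and Col4a2 did not pass.

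Col4a5 read 5.58, 5.43, 5.87, 5.63 and 5.51 in imiquimod-treated KO arrays, against 5.79, 6.24, 6.30, 6.16 and 6.22 in mock-treated KO arrays. The overlap came from a single mock array, replicate 1, which lay below imiquimod replicate 3. Controls read 5.59, 5.62, 5.43, 5.86 and 5.68 after imiquimod, against 6.32, 6.12, 6.34, 6.14 and 6.49 after mock, with no overlap. The difference was -0.54 ± 0.11 (SE) in KO skin and -0.65 ± 0.11 in control skin, with limma adjusted p-values of 0.00121 and 0.000381.

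Col4a6 read 5.26, 4.95, 5.17, 5.06 and 4.99 in imiquimod-treated KO arrays, against 5.59, 5.93, 5.64, 5.81 and 5.65 in mock-treated KO arrays. Control values were 5.43, 5.25, 5.40, 5.30 and 5.49 after imiquimod, against 5.76, 5.6, 5.87, 5.5 and 5.86 after mock. All imiquimod arrays lay below all mock arrays in both genotypes, although in controls imiquimod replicate 5, at 5.49, lay just below mock replicate 4, at 5.5. Col4a6 differed by -0.64 ± 0.09 (SE) in KO skin (limma adjusted p = 3.76e-05) and by -0.34 ± 0.09 in control skin (limma adjusted p = 0.0165). The control call was lost without control imiquimod replicate 2 (adjusted p = 0.051) and with the hair marker mean as a covariate (adjusted p = 0.0594). Col4a6 had the lowest p-value of the 44 genes for the difference between responses, -0.29 with a 95% interval of -0.56 to -0.03 (limma unadjusted p = 0.0321, adjusted p = 0.723).

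Col4a5 and Col4a6 lie head to head on chromosome X, with annotated starts 1343 bases apart on opposite strands. Col4a1 and Col4a2, which did not pass, are arranged in the same way on chromosome 8 with starts 21 bases apart. The 120 bases before the starts of the first pair are shown 5′ to 3′ because both genes fell, with capitals for a GC box, GGGCGG or its reverse complement CCGCCC.
Col4a5, chrX:141475299-141475418, plus strand: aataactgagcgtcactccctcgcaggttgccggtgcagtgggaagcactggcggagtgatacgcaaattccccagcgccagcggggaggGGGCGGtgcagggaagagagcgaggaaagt
Col4a6, chrX:141474077-141474196, minus strand: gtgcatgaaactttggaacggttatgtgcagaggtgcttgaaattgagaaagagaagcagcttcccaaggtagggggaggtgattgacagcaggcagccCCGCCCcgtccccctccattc
The GC box begins 30 bases before the start of Col4a5 and 21 bases before the start of Col4a6.

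Col4a1 read 7.42, 7.09, 7.21, 7.05 and 7.15 in imiquimod-treated KO arrays, against 7.43, 7.21, 7.39, 7.02 and 7.13 in mock-treated KO arrays. In controls it read 7.20, 6.85, 6.82, 7.42 and 7.09 after imiquimod, against 7.32, 7.13, 7.10, 7.26 and 7.56 after mock. The groups overlapped widely in both genotypes, with differences of -0.05 (95% interval -0.30 to 0.20) and -0.20 (-0.45 to 0.05). Col4a2, its partner chain, read 6.64, 6.54, 6.39, 6.61 and 6.67 in imiquimod-treated KO arrays, against 6.87, 6.93, 6.75, 6.53 and 6.62 in mock-treated KO arrays. For Col4a2 the control values were 6.54, 6.30, 6.33, 6.77 and 6.51 after imiquimod, against 6.67, 6.71, 6.64, 6.64 and 6.76 after mock. In controls the highest of its 10 arrays was imiquimod replicate 4, and the differences were -0.17 in KO skin and -0.19 in control skin (limma adjusted p = 0.229 and 0.208). Col4a3 and Col4a4, chains known from kidney basement membranes, had estimates between -0.07 and 0.00.

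Col7a1, the chain of the anchoring fibrils below the epidermis, read 6.04, 5.89, 6.03, 5.85 and 6.11 in imiquimod-treated KO arrays, against 5.90, 6.42, 6.0, 5.97 and 5.98 in mock-treated KO arrays. Its control values were 5.99, 6.14, 5.96, 6.13 and 5.91 after imiquimod, against 5.93, 5.72, 6.03, 5.92 and 6.46 after mock. The highest array was a mock array in each genotype, and in controls mock replicate 2, at 5.72, lay below every imiquimod array. The groups overlapped in both genotypes, and the differences were -0.07 (95% interval -0.31 to 0.17) in KO skin and 0.01 (-0.23 to 0.26) in control skin. Col17a1 encodes the transmembrane collagen of the hemidesmosomes of basal keratinocytes. It read 8.69, 8.64, 8.69, 8.65 and 8.62 in imiquimod-treated KO arrays, against 8.26, 9.33, 8.83, 8.63 and 8.81 in mock-treated KO arrays. Controls had 8.71, 8.73, 8.76, 8.82 and 8.59 after imiquimod, against 8.52, 8.33, 8.94, 8.30 and 8.86 after mock. The mock arrays spread on both sides of the imiquimod arrays, and the differences were -0.11 (95% interval -0.42 to 0.20) and 0.13 (-0.18 to 0.44).

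Col15a1 and Col18a1 encode basement membrane collagens with interrupted helices, and the end of the Col18a1 chain is known as endostatin. Col15a1 read 6.01, 5.96, 6.13, 5.90 and 5.78 in imiquimod-treated KO arrays, against 6.78, 6.79, 7.16, 6.44 and 6.12 in mock-treated KO arrays. In controls it had 6.10, 5.62, 5.76, 6.10 and 6.26 after imiquimod, against 6.38, 6.45, 6.66, 6.57 and 6.96 after mock. Only mock replicate 5 reached into the imiquimod range in KO skin, and the control groups did not overlap. The difference was -0.70 ± 0.16 (SE) in KO skin and -0.64 ± 0.16 in control skin, with limma adjusted p-values of 0.00355 and 0.0132. Col18a1 differed by -0.15 ± 0.09 (SE) in KO skin (limma adjusted p = 0.309) and by -0.30 ± 0.09 in control skin (limma adjusted p = 0.037). The Col18a1 call was lost without any 1 of control imiquimod replicates 1, 2 or 3 or control mock replicates 1, 2 or 4, with adjusted p-values up to 0.111. It was also lost with the hair marker mean as a covariate, where the difference was -0.16 (limma adjusted p = 0.348).

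**Figure D3:**
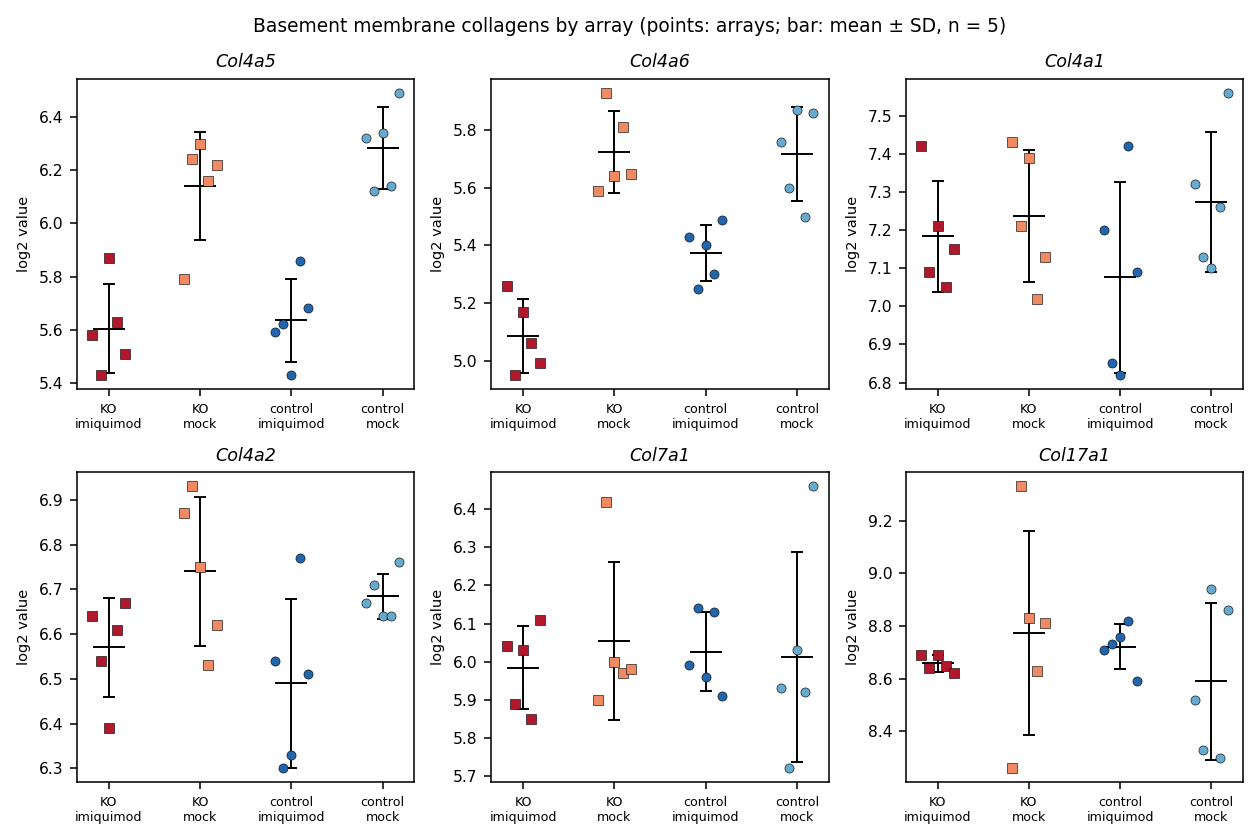
Log2 values of 6 basement membrane and anchoring collagen genes in the 20 arrays, in columns for imiquimod-treated KO, mock-treated KO, imiquimod-treated control and mock-treated control skin; points are arrays, and bars show mean ± SD with n = 5. Col4a5 and Col4a6 have lower imiquimod means in both genotypes (for Col4a6, 5.09 against 5.72 in KO skin and 5.37 against 5.72 in control skin), and Col4a1, Col4a2, Col7a1 and Col17a1 overlap between treatments.

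The 23 remaining collagen genes had 3 falls after imiquimod in each genotype, Col14a1, Col16a1 and Col6a6, and 1 rise in KO skin, Col23a1. Their median difference was 0.00 in KO skin and -0.07 in control skin.

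Col14a1 encodes a fibril-associated collagen that binds the surface of type I fibrils. It read 6.49, 6.59, 6.73, 6.31 and 6.68 in imiquimod-treated KO arrays, against 7.71, 8.31, 7.78, 7.75 and 7.45 in mock-treated KO arrays. Controls read 6.54, 6.72, 6.41, 6.43 and 7.07 after imiquimod, against 7.35, 7.09, 8.33, 7.62 and 8.26 after mock. The KO groups were far apart, and in controls imiquimod replicate 5, at 7.07, lay just below mock replicate 2, at 7.09. The difference was -1.24 ± 0.21 (SE), or 2.36-fold lower, in KO skin (limma adjusted p = 2.08e-04) and -1.10 ± 0.21, or 2.14-fold lower, in control skin (limma adjusted p = 0.0012). It had the lowest estimate of the 44 genes in both genotypes. Col16a1, another fibril-associated chain, differed by -0.36 ± 0.10 (SE) in KO skin and -0.49 ± 0.10 in control skin, with limma adjusted p-values of 0.0105 and 0.00187. Of the remaining 7 genes of that class none passed, and Col12a1, with estimates of -0.21 ± 0.35 (SE) in KO skin and -0.82 ± 0.35 in control skin, had the largest standard error of them.

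Type VI collagen forms beaded filaments around cells. Of its 6 chains Col6a6 passed in both genotypes. Col6a6 read 5.57, 5.44, 5.64, 5.06 and 5.32 in imiquimod-treated KO arrays, against 6.02, 5.93, 5.6, 6.01 and 5.83 in mock-treated KO arrays. The KO groups overlapped only through imiquimod replicate 3 and mock replicate 3. In controls the values were 5.22, 5.22, 5.40, 5.58 and 5.47 after imiquimod, against 6.04, 5.83, 5.83, 6.04 and 6.24 after mock, without overlap. Col6a6 differed by -0.47 ± 0.12 (SE) in KO skin and -0.62 ± 0.12 in control skin, with limma adjusted p-values of 0.00563 and 0.00111. The common chains Col6a1, Col6a2 and Col6a3 had estimates of -0.24, -0.06 and -0.12 in KO skin and -0.43, -0.37 and -0.40 in control skin, and none passed. Col6a2 read 7.12, 7.41, 7.48, 7.66 and 7.26 in imiquimod-treated KO arrays, against 7.40, 7.70, 7.73, 7.30 and 7.12 in mock-treated KO arrays. Controls had 7.14, 6.98, 7.07, 7.32 and 7.24 after imiquimod, against 7.09, 7.32, 7.70, 7.31 and 8.17 after mock. Treatments overlapped in both genotypes, and the responses differed by 0.30 (95% interval -0.18 to 0.79). Col6a4, a dim chain, read 4.83, 4.56, 4.73, 4.48 and 4.56 in imiquimod-treated KO arrays, against 4.64, 4.69, 4.42, 4.48 and 4.76 in mock-treated KO arrays. Its control values were 4.65, 4.61, 4.83, 4.72 and 4.71 after imiquimod, against 4.60, 4.31, 4.26, 4.43 and 4.76 after mock. These too overlapped in both genotypes, with differences of 0.03 in KO skin and 0.23 in control skin (limma adjusted p = 0.873 and 0.146).

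Col23a1 encodes a transmembrane collagen. It read 6.68, 6.62, 6.86, 7.01 and 6.66 in imiquimod-treated KO arrays, against 6.48, 6.27, 6.73, 6.18 and 6.36 in mock-treated KO arrays. Mock replicate 3 lay above 3 of the imiquimod arrays, and the rise of 0.36 ± 0.13 (SE) passed narrowly (limma adjusted p = 0.0453). Controls read 6.86, 6.91, 6.68, 6.84 and 6.61 after imiquimod, against 6.47, 6.05, 6.48, 6.36 and 6.83 after mock, a difference of 0.34 ± 0.13 (SE) that did not pass (limma adjusted p = 0.0895). The KO call held in 5 of the 20 fits that left out 1 array, those without KO imiquimod replicate 2, KO mock replicate 3, control imiquimod replicate 5, control mock replicate 2 or control mock replicate 5. It was lost in the other 15, with adjusted p-values up to 0.123. With the hair marker mean as a covariate the KO difference was 0.23 and did not pass (limma adjusted p = 0.207). With the muscle, adipocyte and fibroblast marker means, also described below, it was 0.57, 0.57 and 0.49 and passed (limma adjusted p = 0.00483, 0.0107 and 0.004). In control skin the rise passed with array weights (0.41) and without the arrays most outlying in hair markers (0.48). It also passed there with the adipocyte and fibroblast means (0.40 and 0.43), and not with the hair or muscle mean. The 120 bases before the start of Col23a1 are shown beside the genes that fell, 5′ to 3′, with the reverse complement of a GC box in capitals.
Col23a1, chr11:51289800-51289919, plus strand: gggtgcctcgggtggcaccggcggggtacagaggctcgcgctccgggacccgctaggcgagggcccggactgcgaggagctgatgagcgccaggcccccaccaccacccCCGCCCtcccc
That GC box begins 11 bases before the start.

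Motifs were searched on both strands in the 250 bases before each annotated start, as CCAAT, as GGGCGG (the GC box) and as TATAAA. Of the 12 genes lower in either genotype 10 had a RefSeq promoter. A gene was counted if any of its promoters held the motif. The GC box was found for 8 of these 10 genes (80.0%), for 13 of the 25 other collagen genes (52.0%) and for 35.4% of 27025 mouse genes. CCAAT was found for 5 of the 10 (50%), for 8 of the 25 (32.0%) and for 37.5% of the 27025 genes. TATAAA was found for 1 of the 10 (10%), for 4 of the 25 (16%) and for 14.3% of the 27025 genes. These are matches of letters, with no test and no evidence of binding.

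No collagen gene passed the limma test between KO and control skin. Under imiquimod 0 of 44 passed between KO and control skin, beside 0.546% of all genes, and 1 (Col4a6) had an unadjusted p under 0.05, beside 10% of all genes. Under mock 0 of 44 passed, beside 0.00902% of all genes, and 0 had an unadjusted p under 0.05, beside 3.19% of all genes. The difference between the responses passed for 0 of 44, beside 0.018% of all genes, and 1 (Col4a6) had an unadjusted p under 0.05, beside 6.75% of all genes. At the unadjusted threshold the collagen share was thus below that of all genes in each of these 3 comparisons. No collagen gene had KO and control arrays without overlap, where 1.3% of all genes were higher and 1.17% lower without overlap under imiquimod, and 0.189% and 0.221% under mock. With so few genes passing in any of these 3 comparisons, 0 of 44 is close to the share among all genes. The 3 comparisons and the responses share arrays, so their values are not independent of each other. The median over the 44 genes was 0.07 for KO against control under imiquimod, -0.04 under mock and 0.12 for the difference between responses.

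Under imiquimod Col4a6 was 0.29 ± 0.09 (SE) lower in KO than in control skin on the log2 scale (limma adjusted p = 0.207). Its KO arrays, listed above, were lower than the control arrays except that KO replicate 1, at 5.26, passed control replicate 2, at 5.25. Col8a1, a chain of a short network collagen of vessel walls, read 5.01, 4.78, 4.97, 7.81 and 5.21 in imiquimod-treated KO arrays, against 4.85, 4.91, 5.11, 4.82 and 4.94 in imiquimod-treated control arrays. A single KO array, replicate 4, set its mean apart. The difference was 0.63 ± 0.37 (SE, limma adjusted p = 0.617), and without that array it was 0.07. Its partner Col8a2 read 5.12, 5.27, 5.33, 5.48 and 5.20 in imiquimod-treated KO arrays, against 5.09, 4.69, 4.93, 5.37 and 4.95 in imiquimod-treated control arrays. These overlapped, with a difference of 0.27 ± 0.14 (SE, limma adjusted p = 0.514). Under mock the 44 estimates between genotypes ran from -0.18 (Col11a1) to 0.18 (Col17a1).

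The genes of collagen making and handling were read from lists, whose counts stand beside 11.1% of all genes higher and 9.71% lower in KO skin, and 6.47% higher and 4.37% lower in control skin. The difference between the responses passed for 0 genes in each of these lists, beside 0.018% of all genes. A call in 1 genotype alone is therefore not read as a difference between genotypes. In the list of folding and modification, with 19 of 21 genes measured, 2 rose and 1 fell in KO skin, and 1 rose and 2 fell in control skin. In KO skin these are 10.5% higher and 5.26% lower, no more than among all genes, and in control skin 5.26% higher and 10.5% lower. P4hb, the protein disulfide isomerase that is also a subunit of collagen prolyl 4-hydroxylase, rose by 0.89 ± 0.08 (SE) in KO skin and 0.54 ± 0.08 in control skin, with limma adjusted p-values of 1.62e-07 and 1.25e-04. It was also 0.37 ± 0.08 (SE) higher in KO than in control skin under imiquimod (limma adjusted p = 0.0378), a call that was lost in 10 of the 20 fits without 1 array, with adjusted p-values up to 0.128. Plod2, which hydroxylates lysines of collagen telopeptides, fell by 1.45 in KO skin and 1.36 in control skin (limma adjusted p = 0.00728 and 0.0203). The Plod2 call in control skin was lost without control imiquimod replicate 3 or control mock replicate 2. Serpinh1, the collagen chaperone HSP47, fell by 0.63 in control skin (limma adjusted p = 0.00556). In KO skin Serpinh1 differed by -0.37 and did not pass (limma adjusted p = 0.0701).

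In the list of processing and crosslinking, with 12 of 14 measured, 3 genes fell in each genotype and 0 rose. Bmp1, the procollagen C-proteinase, fell by 0.45 ± 0.12 (SE) in KO skin and 0.68 ± 0.12 in control skin (limma adjusted p = 0.0101 and 7.14e-04). Adamts14, an N-proteinase of procollagen, fell by 0.45 ± 0.10 (SE) and 0.52 ± 0.10 (limma adjusted p = 0.00231 in KO skin and 0.00109 in control skin). Pcolce2, an enhancer of the C-proteinase, fell by 0.80 in KO skin, and Sparc, a collagen-binding matrix protein, fell by 0.62 in control skin (limma adjusted p = 0.0168 and 0.0266). The Pcolce2 call was lost without KO imiquimod replicate 1 or KO mock replicate 2. The Sparc call was lost without any 1 of control imiquimod replicates 1 to 3 or control mock replicates 3 or 5.

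Of 13 matrix proteins that bind or accompany fibrils, 4 fell and 1 rose in KO skin, and 3 fell in control skin. Ogn, a small proteoglycan that binds collagen, fell by 1.48 ± 0.21 (SE) in KO skin and 0.93 ± 0.21 in control skin. Fn1, fibronectin, fell by 1.20 ± 0.21 and 1.10 ± 0.21 (SE), and the limma adjusted p-values of both genes in both genotypes lay between 4.4e-05 and 0.00623. Postn, a matricellular protein of collagen-rich tissue, fell by 0.83 in KO skin (limma adjusted p = 8.49e-04). Tnc, tenascin-C, which is raised in wounds, rose by 1.93 ± 0.44 (SE) in KO skin (limma adjusted p = 0.00337). Of 8 measured collagen receptors 3 fell in KO skin and 1 in control skin, where 2 were called without KO mock replicate 3, control imiquimod replicate 5 or control mock replicate 2. Ddr1, a receptor tyrosine kinase for collagen, fell in both, by 0.42 in KO skin and 0.51 in control skin (limma adjusted p = 0.0109 and 0.00533). Itga11, the integrin chain of a fibroblast collagen receptor, fell by 0.53 in KO skin (limma adjusted p = 0.00323). In control skin Itga11 differed by -0.36 and did not pass (limma adjusted p = 0.0567).

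Of 10 collagenases, gelatinases and their inhibitors, 4 rose and 2 fell in KO skin and 1 fell in control skin. Mmp8 and Mmp13, which cut fibrillar collagen, rose by 1.68 ± 0.35 and 0.99 ± 0.25 (SE) in KO skin (limma adjusted p = 0.00171 and 0.00709). Timp1, an inhibitor of these enzymes, rose by 2.03 ± 0.32 (SE) in KO skin, while Timp3, an inhibitor bound to matrix, fell by 1.51 ± 0.14 in KO skin and 0.79 ± 0.14 in control skin (limma adjusted p = 1.3e-04, 2.48e-07 and 7.5e-04). Control skin had differences of 0.83 for Mmp8, -0.26 for Mmp13 and 0.77 for Timp1, which did not pass (limma adjusted p = 0.148, 0.618 and 0.143). Whether these KO and control responses differ did not pass for any gene of the list. The single control call became 3 without KO imiquimod replicate 4 and 2 without control imiquimod replicate 5 or control mock replicate 5.

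TGF-beta signalling is the best known inducer of collagen genes in fibroblasts. Of 11 measured genes of its pathway, 1 rose and 2 fell in each genotype, or 9.09% and 18.2%. The count of calls reached 5 in KO skin without KO imiquimod replicate 4 or control mock replicate 5, and was 1 in control skin without control imiquimod replicate 3 and 0 there by limma with the hair covariate, where 3 of 11 had an unadjusted p under 0.05. Tgfb1, a ligand, rose by 0.40 ± 0.10 (SE) in KO skin and 0.41 ± 0.10 in control skin (limma adjusted p = 0.00932 and 0.0143). Smad3, a signal transducer of the pathway, fell by 0.45 and 0.51 (limma adjusted p = 0.0166 and 0.0146), calls that were lost without KO imiquimod replicate 2 in KO skin and without control imiquimod replicate 3 in control skin. Tgfb2, another ligand, fell by 0.62 in KO skin (limma adjusted p = 0.0155). In control skin Tgfb2 differed by -0.45 and did not pass (limma adjusted p = 0.115). Smad7, an inhibitor of the pathway, fell by 0.97 in control skin (limma adjusted p = 0.0309). In KO skin Smad7 differed by -0.73 and did not pass (limma adjusted p = 0.0752). The Tgfb2 call was lost without KO mock replicate 2, and the Smad7 call in 7 of the 20 fits without 1 array.

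Of 15 measured laminins and basement membrane partners, 7 fell and 2 rose in KO skin, and 2 fell and 1 rose in control skin. The KO count of 9 calls became 5 without KO imiquimod replicate 1 or 2 and 3 with the adipocyte covariate, and the control count of 3 became 5 without control imiquimod replicate 5. Lamb1, a laminin chain, fell by 0.77 ± 0.12 (SE) in KO skin and 0.52 ± 0.12 in control skin (limma adjusted p = 1.28e-04 and 0.00713). Nid1, nidogen, which links laminin to type IV collagen, fell by 0.88 in KO skin, and Dst, which ties hemidesmosomes to keratins, fell by 0.62 (limma adjusted p = 0.0108 and 0.00107). In control skin Nid1 and Dst differed by -0.49 and -0.13 and did not pass (limma adjusted p = 0.208 and 0.589). Itga6, the laminin-binding integrin of basal keratinocytes, rose by 0.62 ± 0.13 (SE) in KO skin and 0.66 ± 0.13 in control skin (limma adjusted p = 0.00221 and 0.00229). Among 7 measured basal keratinocyte markers, of which some are also in the laminin list, 3 rose and 2 fell in KO skin and 2 rose and 1 fell in control skin, and their mean ranged from 8.65 to 8.86 over imiquimod-treated KO arrays, 8.59 to 9.11 over mock-treated KO arrays, 8.63 to 8.84 over imiquimod-treated control arrays and 8.48 to 9.05 over mock-treated control arrays.

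Other tissue of the samples also varied. Counts of marker genes stand beside the same shares of all genes, 11.1% higher and 9.71% lower in KO skin. In control skin these shares are 6.47% higher and 4.37% lower. Of 10 fibroblast markers 3 fell in KO skin (Mfap5, Dpt and Cd34) and 1 in control skin (Dpt), and all 10 averaged above the median gene. The fibroblast mean ranged from 8.01 to 8.56 over imiquimod-treated KO arrays, against 8.28 to 8.93 over mock-treated KO arrays. In controls it ranged from 8.21 to 8.40 after imiquimod, against 8.08 to 8.99 after mock, so the treatments overlapped in both genotypes. The mean of 17 hair markers was 5.75 to 9.35 after imiquimod and 6.23 to 10.39 after mock in KO skin, and 5.49 to 9.54 after imiquimod and 6.22 to 10.41 after mock in control skin. Averaged over the group it was 6.94 after imiquimod and 8.96 after mock in KO skin, and 6.65 and 9.35 in control skin. All 17 hair markers had estimates below 0 in both genotypes. Hair content thus went largely with treatment, and their parts cannot be fully told apart. No hair marker passed by limma, while 7 of 17 in KO skin and 17 of 17 in control skin had an unadjusted p under 0.05, where 31.2% and 23.9% of all genes did.

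Of 9 skeletal muscle markers, 6 fell and 1 rose in KO skin, and 1 rose in control skin. Their mean was 7.93 to 8.79 over imiquimod-treated KO arrays, against 8.92 to 9.73 over mock-treated KO arrays, which did not overlap. The same mean was 8.77 to 9.78 over imiquimod-treated control arrays, against 8.63 to 10.04 over mock-treated control arrays. Of 7 adipocyte markers 5 fell in KO skin and 1 in control skin, and their mean was 6.85 to 7.66 over imiquimod-treated KO arrays, against 7.68 to 9.31 over mock-treated KO arrays. These did not overlap either. Adipocyte means in controls were 7.51 to 8.09 after imiquimod, against 7.57 to 8.56 after mock. Adding the muscle mean as a covariate gave Col1a1 a KO difference of -0.41 (limma adjusted p = 0.281) and ended 5 of the 10 KO calls, those of Col1a1, Col1a2, Col5a3, Col15a1 and Col16a1. Adding the adipocyte mean gave -0.45 (limma adjusted p = 0.334) and ended those 5 and Col4a5. Not all of these differences shrank alike. Col16a1, at -0.36 without a covariate, was -0.31 with either (limma adjusted p = 0.0843 and 0.108), and Col15a1, at -0.70, was -0.56 with the muscle mean and -0.42 with the adipocyte mean (limma adjusted p = 0.0505 and 0.149). Col4a5 was -0.38 with the adipocyte mean (limma adjusted p = 0.0527), while Col5a3, at -0.44, was -0.23 and -0.15. Other genes gained a KO call, all lower after imiquimod. Col11a1 was -1.34 and Col12a1 -1.16 with the muscle mean, and they were -1.33 and -1.23 with the adipocyte mean, which also brought Col18a1 to -0.33. In control skin all 12 calls held with either covariate, where Col1a1 differed by -1.13 and -0.91. With the fibroblast mean as covariate, an alternative chosen after seeing the data, Col1a1 differed by -0.61 in KO skin and -0.84 in control skin and 9 of the 10 KO calls and all 12 control calls held. The hair mean as covariate enlarged the Col1a1 difference, to -1.24 in KO skin and -1.47 in control skin (limma adjusted p = 3.5e-04 and 3.9e-04).

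Mock-treated arrays low in hair markers were high in Col1a1. Control mock replicate 5, with a hair mean of 6.22, had the highest Col1a1 value (11.99), the highest fibroblast mean (8.99) and the highest muscle mean (10.04) of its group. In KO mock skin replicates 2 and 3, with hair means of 8.13 and 6.23, had the highest Col1a1 values (11.26 and 11.25) and fibroblast means (8.91 and 8.93). The part of these tissue differences in the collagen results was not tested. In KO skin the covariate fits cannot give it, since muscle and adipocyte means did not overlap between treatments. Such a covariate carries much of the treatment difference itself. When 1 array per group, the one with the most outlying hair mean, was left out, 10 collagen genes passed in KO skin and 16 in control skin. With all arrays 20.8% and 10.8% of all genes passed in these comparisons. The shares of all genes without the outlying arrays are not given here, so these 2 counts have no share from their own fit beside them. The 10 in KO skin were the reported ones, of which Col23a1 was higher. Those added in control skin were Col11a1 and Col12a1, lower after imiquimod (-1.15 and -1.38), and Col6a4 and Col23a1, higher (0.30 and 0.48).

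**Figure D4:**
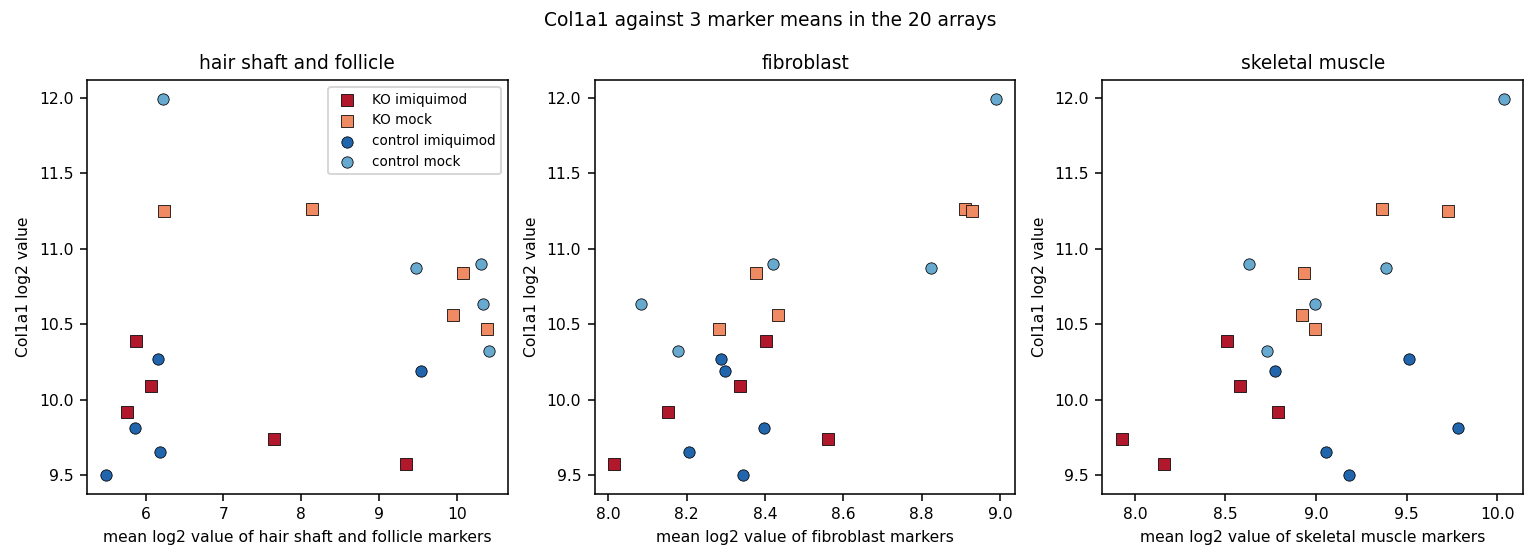
Log2 value of Col1a1 (vertical) against the mean log2 value of hair, fibroblast and skeletal muscle markers (horizontal) in the 20 arrays; squares are KO and circles control arrays, darker after imiquimod and lighter after mock. The control mock array with Col1a1 at 11.99 had a hair mean of 6.22, a fibroblast mean of 8.99 and a muscle mean of 10.04.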

How the data were processed

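Abdominal skin of 20 mice was profiled on Affymetrix arrays, starting from 200 ng of total RNA and the WT PLUS labelling kit, per the labels' protocols. A single table was deposited by the authors, with log2 values for 41345 probe sets in 20 arrays. The log2 scale is inferred from their range, 1.41 to 13.33. No source used here gives the log base, the normalization or the software. Of the probe sets 23521 had 1 gene symbol in a table of the platform, 1814 had several and 16010 none; the brightest per symbol gave 22180 genes.

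These log2 values were fitted by limma 3.58.1 under R 4.3.3 (lmFit, then eBayes, 1 mean per group, 16 residual degrees of freedom, no dim filter), two-sided, with Benjamini-Hochberg adjustment over all genes in each of 5 contrasts and a threshold of 0.05. The code was tested on simulated data. Zfp36 also had an exact permutation test. Folds were computed from log2 differences. Precision is limited by the number of arrays; the median standard error was 0.11 for imiquimod against mock in KO skin.

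The members, the 7 lists of collagen-related genes and the 10 lists of cell type markers were chosen with earlier results of these data known. Cartilage and bone markers, pericyte, endothelium, dermal papilla and Schwann cell lists had 0, 1, 1, 1 and 0 members past the threshold in KO skin and 0 each in control skin. Values in every array are given for the 3 members with the lowest p in each contrast and for Col1a1, Col1a2, Col3a1, Col4a1, Col4a2, Col7a1 and Col17a1, and, beyond that rule and after their values were seen, for Col5a1, Col5a3, Col15a1 and Col23a1; those with the lowest p in a comparison of genotypes are given where that comparison is described. From a list up to 4 members with the largest change past the threshold could be named. Alternatives were other samples, blocks, priors, weights, normalizations, probe set rules and covariates, and each array left out in turn. Promoters came from RefSeq (GRCm38.p6).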

Additional observations from a re-analysis of the deposited data

Results flagged for a closer look

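For 21 collagen genes in each of the 4 groups, the array farthest from the rest was compared with its group by Dixon's test, 84 tests in all, of which chance marks about 1 in 20. It marked 5. The control mock array of replicate 5 stood above its group in Col5a1, at 8.64 with the others between 7.32 and 7.60, and in Col5a3, at 7.15 with the others between 6.64 and 6.77. In mock-treated KO skin replicate 1 was low in Col4a5, at 5.79 with the others between 6.16 and 6.30, and replicate 2 was high in Col7a1, at 6.42 with the others between 5.90 and 6.0. In imiquimod-treated KO skin replicate 4 was high in Col8a1, at 7.81 with the others between 4.78 and 5.21.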

How the results depend on the processing

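Across the 15 alternatives and 20 fits that left out 1 array, the number of collagen genes past the threshold stayed within 1.5 times the reported one, from 7 to 12 in KO skin and from 9 to 16 in control skin, and was 0 in all 3 comparisons that involve genotype. The genes were not the same: of the 7 calls in KO skin, 5 were among the reported 10 with the muscle covariate, which added Col11a1 and Col12a1, and 4 were with the adipocyte covariate, which added Col11a1, Col12a1 and Col18a1. With the hair covariate 9 of the 10 KO calls and 10 of the 12 control calls were kept, while 3 and 4 genes were added. In the reported fit 20.8% of all genes passed in KO skin and 10.8% in control skin. The shares in the alternative and left-out fits are not given here. A moved count is therefore not read as particular to collagens. Leaving out 1 array gave 9 to 12 calls in KO skin and 9 to 15 in control skin. The calls of Col1a1, Col1a2, Col5a3, Col4a5, Col15a1, Col6a6, Col14a1 and Col16a1 in both genotypes held in all 20. Replicate numbers were not taken to pair the animals. Deviations of same-numbered arrays from their group means correlated between -0.71 and 0.52. Between the 2 control groups they averaged -0.35 for same numbers, against 0.06 for other numbers. In the other pairs of groups the same-number averages lay between -0.05 and 0.16. With the replicate number as a block the calls were 9 in KO skin, where Col23a1 was lost (0.36, limma adjusted p = 0.0645), and 12 in control skin. The Zfp36 difference under imiquimod, -1.6 as reported, was -0.92 with the muscle covariate and -1.21 with the adipocyte covariate (limma adjusted p = 0.555 and 0.433), and passed only with the fibroblast covariate, chosen after seeing the data (-1.57, limma adjusted p = 0.043). With the adipocyte covariate the calls in KO skin numbered 1 in place of 3 for processing and crosslinking, 2 in place of 5 for fibril-associated proteins, 3 in place of 6 for collagenases and 3 in place of 9 for laminins.

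Signs turned only for genes that had not passed, and the cause was not tested. In KO skin the muscle and adipocyte covariates turned Col4a1 (0.0345 and 0.0042), Col7a1 (0.186 and 0.0966), Col17a1 (0.15 and 0.0874) and Col6a2 (0.21 and 0.22), and the fibroblast covariate turned Col7a1 (0.0436), Col17a1 (0.0548) and Col6a2 (0.20). Col6a4 turned with the adipocyte covariate (-0.0338), and without the arrays most outlying in hair markers Col6a2 (0.0725) and Col6a4 (-0.06) turned. In control skin the hair covariate turned Col7a1 (-0.16) and Col17a1 (-0.0506), the muscle covariate Col7a1 (-0.0196) and the fibroblast covariate Col8a1 (0.0432). Without 1 array the KO difference ranged from -0.1085 to 0.0215 for Col7a1, -0.242 to 0.0255 for Col17a1, -0.1465 to 0.006 for Col6a2, -0.0155 to 0.0745 for Col6a4 and -0.1835 to 0.574 for Col8a1. The control difference of Col7a1 ranged from -0.059 to 0.126. Over the 51 differences of single named genes, counting every alternative and left-out array, 1694 values kept direction and side of the threshold, 47 lost a call, 14 gained one and 30 turned. Many of these values could not turn. Other priors, the replicate block and the test of every probe set leave an estimate as it was. So do a fit on the groups of the contrast alone and the loss of an array outside the contrast. The 1694 are therefore no measure of how firm the directions are. Precision is limited by 5 arrays a group, and signal over background was not assessed.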
